A study of Arabidopsis thaliana with 20 samples.

Results

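Hypocotyl segments of the Arabidopsis mutant ckh1-1 were compared with segments of the Landsberg erecta (Ler) wild type after culture on auxin alone. The comparison holds 4 of the 20 arrays of the series, chosen by their titles as the 2 ckh1 arrays and the 2 wild-type arrays without kinetin, and each array of one genotype was set against the array of the other genotype with the same replicate number. Seedlings grew for 10 days in dim light, and their hypocotyl segments then stayed for 3 days under continuous light on callus induction medium with the synthetic auxin 2,4-D at 100 ng/ml, which every group of the series received. The other groups used here are wild type and ckh1-1 with the cytokinin kinetin at 25 or 200 ng/ml, ckh2-1 without kinetin, and wild type without kinetin but with 100 ng/ml of trichostatin A (TSA), which blocks histone deacetylases. Each group has 2 arrays, and each mutant is represented by a single allele. Nothing in the labels says whether the 2 arrays of a group came from separate cultures, so the p-values below measure only the spread between these arrays.

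As background, CKH1 encodes a relative of TAF12, a subunit of the general transcription factor TFIID, which helps RNA polymerase II start transcription at promoters. CKH2 encodes PICKLE, a chromatin remodeller of the CHD3 type. Callus on auxin forms from pericycle-like cells by a route shared with lateral root initiation, in which auxin response factors switch on genes of the LBD family such as LBD16 and LBD29, and added cytokinin speeds the growth and greening of that callus. No probe set could be named as CKH1, CKH2 or any of the 16 TFIID, SAGA and chromatin genes listed, so the mutated gene itself was not checked. None of the 21 floral, seed, epidermal and endodermal marker genes listed could be named on the array either, so the tissue label was not checked. In RNA from whole segments, fewer cells of a type and less RNA per cell cannot be told apart, and this holds for every difference below.

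The values are deposited signals of the ATH1 array, on a linear scale that differed between the replicate numbers. The mean signal after trimming 2% at each end was 310.9 on every replicate 1 array and 236.9 on every replicate 2 array, a ratio of 1.31. Differences are therefore given as log2 of the signal plus a pseudocount of 27.4, fitted by limma over all 20 arrays with the replicate number as a block, and called where the Benjamini-Hochberg adjusted p over 15469 probe sets fell below 0.05. The other 7277 of 22746 probe sets were too dim to be tested. Every log2 difference is ckh1 minus wild type unless another pair is named, followed by ± its standard error (SE). The SE comes from the limma fit, whose spread is shared over all 20 arrays, with 2 arrays per group in each difference. The small number of arrays limits the precision, and differences of genes close to 0 signal in one genotype depend on the pseudocount.

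Without kinetin, genes lower in ckh1 outnumbered genes higher in it, and their differences were larger. Of 15469 probe sets tested, 1407 (9.1%) were called by limma, 1063 (6.87%) lower and 344 (2.22%) higher in ckh1. The median difference of the probe sets called lower was -1.01 and that of the probe sets called higher was 0.65, while the median over all tested probe sets was 0.05. A difference beyond 2 on the log2 scale was reached by 92 called probe sets in the lower direction and by 5 in the higher direction. The signals of the 2 genotypes did not overlap for 1305 of the called probe sets, against 28.8% (4451) of all those tested. Across all tested probe sets the replicate 1 difference and the replicate 2 difference had a Pearson correlation of 0.63, given as a description because the arrays share no sample but probe sets are not independent. When the fit left out the replicate block, 420 probe sets (2.72%) were called, 383 (2.48%) lower and 37 (0.239%) higher, so that 8.81% of the calls were higher in ckh1 in place of 24.4%. That share was 19.7% on arrays rescaled to one mean without the block and 28.8% after quantile normalization. Without replicate 1 of ckh1 the count was 618, without replicate 2 of wild type 860 and without replicate 1 of wild type 913. Of the called probe sets, 706 carry the name of exactly 1 gene (534 lower, 172 higher), and the accounts of genes below rest on these. In the 23 gene lists written locus by locus, 48 of 380 entries could be named on the array, so those lists are covered only in part.

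**Figure D1:**
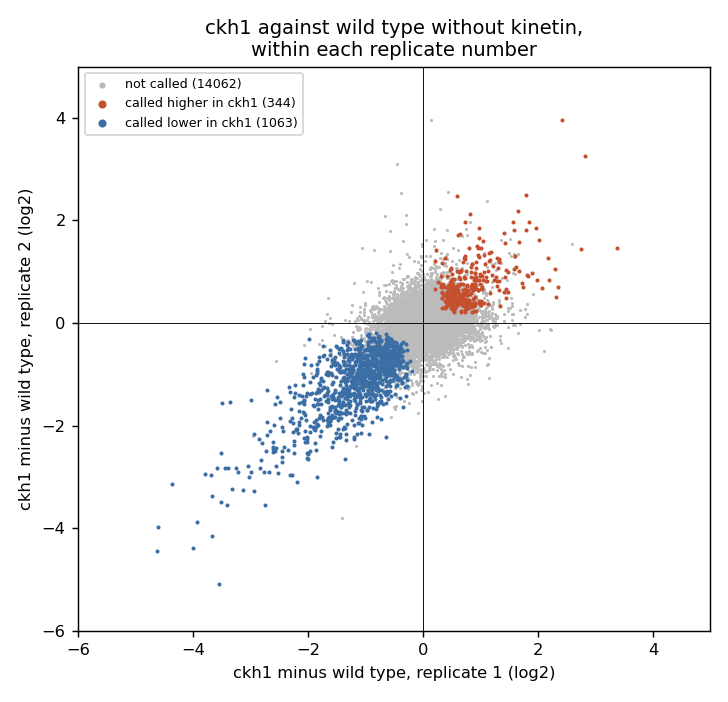
Difference between ckh1 and wild type without kinetin in replicate 1 (x axis) and in replicate 2 (y axis), both on the log2 scale, for each of 15469 probe sets, with the 1063 called lower and the 344 called higher coloured. The called probe sets, which were chosen on these values, reach further in the lower than in the higher direction.

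The 15 genes with the lowest differences in ckh1 included a defensin-related gene, a class III peroxidase, a dirigent-like gene, sugar transporters and a peptide signal. Most of them are listed in the reference by locus tag alone, and the families given for them here and below are general background on Arabidopsis. AT3G63360, a defensin-related gene, gave signals of 1768 and 1866 in wild type (replicates 1 and 2) and 126 and 28.4 in ckh1. Both mutant arrays lay far under both wild-type arrays, and the difference was -4.32 ± 0.49 (adjusted p = 4.46e-05). AT5G17820, a class III peroxidase of the kind that cross-links or loosens walls with hydrogen peroxide, read 2712 and 1983 in wild type against 144 and 68.2 in ckh1. Its groups were as clearly apart, with a difference of -4.20 ± 0.38 (adjusted p = 6.65e-06). The dirigent-like gene AT4G11190, from a family that steers the coupling of phenolic radicals, had 492 and 309 in wild type and 18.2 and 2.42 in ckh1. The mutant values were close to the bottom of the array's range, and the difference of -3.50 ± 0.20 (adjusted p = 2.1e-07) shared the lowest adjusted p of the set. For AT2G43860, a polygalacturonase-like pectin lyase fold gene, the wild-type signals were 772 and 599 and the ckh1 signals 47.6 and 26.2, with a difference of -3.48 ± 0.28 (adjusted p = 2.56e-06). AT3G57620, related to glyoxal oxidases that make hydrogen peroxide outside the cell, fell from 305 and 191 to 3.1 and 3.4. Since ckh1 had almost no signal for it, the fitted difference of -3.14 ± 0.31 grew to -5.35 with the pseudocount lowered to 2.74, and the adjusted p was 1.24e-05. Each of these genes was separated by more than the spread between replicates, in both replicate numbers. The 15 lowest genes, and the 15 highest below, were chosen by a call and the same sign in both, so this separation is no separate support.

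Others of the 15 encode sugar transporters, an invertase, a signalling peptide and a protease. SAG29, which encodes the plasma membrane sugar transporter SWEET15, gave 2336 and 1858 in wild type and 280.4 and 167 in ckh1, a difference of -3.11 ± 0.24 (adjusted p = 1.75e-06). SWEET2, a sugar transporter of the vacuolar membrane, gave 636 and 546 against 75.6 and 49.3, a difference of -2.79 ± 0.26 (adjusted p = 9.43e-06). For both transporters the highest mutant signal was under the lowest wild-type signal. AT1G62660, a vacuolar invertase that splits sucrose, read 1227 and 939 in wild type and 223 and 96.3 in ckh1. Its replicate 2 array in ckh1 was the lowest of the 4, and the difference was -2.65 ± 0.43 (adjusted p = 0.000934). RALFL32, a member of the RALF family of secreted peptides that act through receptor kinases, had nearly equal replicates in both genotypes, 464 and 415 in wild type and 34.0 and 31.7 in ckh1. It fell by 2.95 ± 0.28 on the log2 scale (adjusted p = 9.46e-06), with no overlap. AT1G29090, a papain-type cysteine protease, gave 1963 and 1258 in wild type against 181 and 154 in ckh1, a difference of -3.04 ± 0.34 (adjusted p = 3.57e-05). Its mutant arrays were close to each other and well apart from the wild type.

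A further 5 genes of the lowest 15 had differences between -3.38 and -2.61. They include AT5G60530, related to late embryogenesis abundant proteins (-3.38 ± 0.40), AT3G26460 (-3.20 ± 0.28) and AT4G23670 (-3.11 ± 0.32), both of the major latex protein family, AT1G27030 (-2.92 ± 0.17) and AT4G28940, of the phosphorylase superfamily (-2.61 ± 0.25). The adjusted p over the 15 genes ran from 2.1e-07 to 0.000934, and the signals of the genotypes did not overlap for any of them. All 15 stayed called under each of the 11 alternatives tried, including the fit without the block and each fit without 1 of the 4 arrays.

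**Figure D2:**
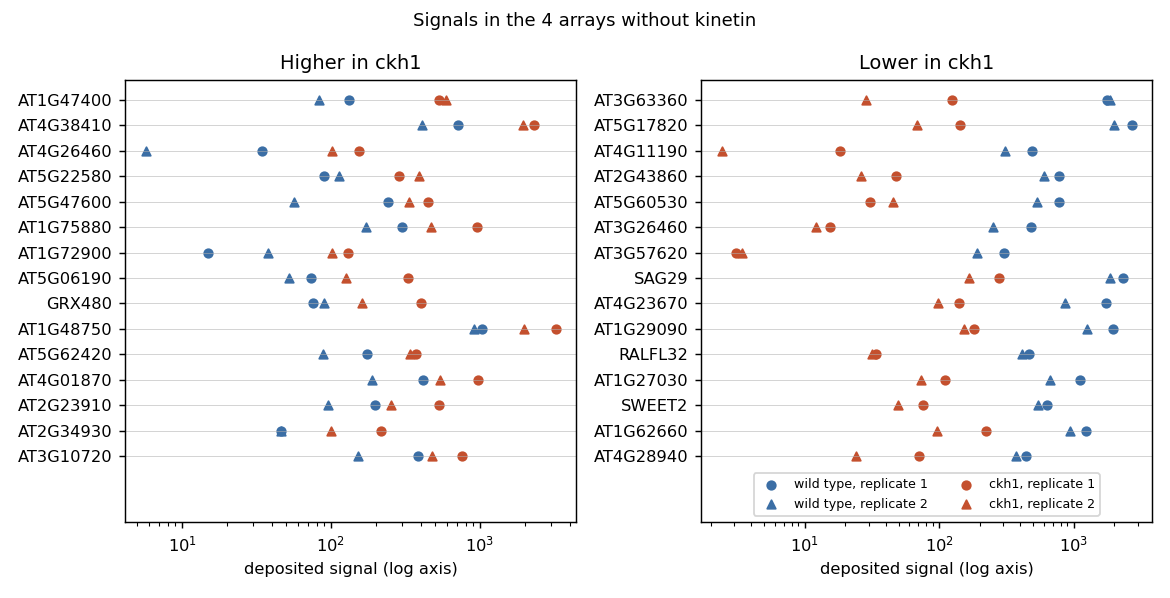
Deposited signal (x axis, log scale) in the 2 wild-type and 2 ckh1 arrays without kinetin for the 15 genes with the largest higher (left) and lower (right) differences among named, called probe sets. For all 30 genes, which were chosen on these values, the wild-type and ckh1 points do not overlap, and the gaps on the right are wider than those on the left.

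The genes higher in ckh1 included an iron-deficiency peptide, stress-linked proteins and genes of the immune response, and their differences were smaller. AT1G47400, one of the small IRON MAN peptides that raise iron uptake, gave 133 and 82.6 in wild type and 529.6 and 591 in ckh1. Both mutant arrays were several fold above both wild-type arrays, and the difference of 2.14 ± 0.29 (adjusted p = 0.000237) was the largest among the named genes. AT4G38410, a dehydrin, a class of proteins made during drying and cold, read 707 and 405 in wild type against 2293 and 1939 in ckh1. Its genotypes were separate, with a difference of 1.92 ± 0.36 (adjusted p = 0.00265). AT5G22580, with a stress-responsive A/B barrel domain, had 90.0 and 114 in wild type and 286 and 388 in ckh1, a difference of 1.49 ± 0.26 (adjusted p = 0.00183). AT1G75880, a secreted lipase of the GDSL family, had 300.4 and 173 against 960.0 and 467. Here replicate 1 was above replicate 2 within each genotype, the groups did not overlap, and the difference was 1.45 ± 0.24 (adjusted p = 0.00115). AT1G48750, a lipid-transfer-like protein, rose from 1034 and 914 to 3225 and 1976, by 1.35 ± 0.19 (adjusted p = 0.000245). AT5G62420, an aldo-keto reductase, read 176 and 88.8 in wild type and 372 and 341 in ckh1, a difference of 1.32 ± 0.21 (adjusted p = 0.000926). For each of these last genes both mutant signals were above both wild-type signals.

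Among the higher genes, 3 are linked to immunity, and their calls depended on single arrays. GRX480, a glutaredoxin induced by salicylic acid, gave 75.8 and 90.4 in wild type and 403 and 162 in ckh1, where replicate 1 was far above replicate 2. The difference was 1.37 ± 0.29 (adjusted p = 0.00706), and the groups did not overlap. AT2G34930, a leucine-rich repeat gene of the disease resistance type, read 46.5 and 46.4 against 216 and 99.3, with a difference of 1.25 ± 0.24 (adjusted p = 0.00333). AT1G72900, a TIR-domain gene, had 14.9 and 38.1 in wild type and 129.8 and 102 in ckh1, a difference of 1.44 ± 0.36 (adjusted p = 0.0192). The wild-type signals of AT1G72900 and of AT4G26460 (34.2 and 5.70, against 155 and 102 in ckh1) lay close to the bottom of the range, and the difference of 1.76 ± 0.39 for AT4G26460 became 2.86 with the lower pseudocount. The other 5 of the 15 were AT5G06190 (1.38 ± 0.28), AT4G01870 (1.29 ± 0.38), AT2G23910 (1.25 ± 0.22), the HSP20-like AT5G47600 (1.47 ± 0.42) and the pectin methylesterase gene AT3G10720 (1.22 ± 0.32). Of the 15 genes, 5 stayed called under all 11 alternatives and 7 were called without the replicate block. Here and below, the value in brackets beside a lost call is its adjusted p by limma. Under the other settings, calls were lost for AT5G47600 (0.0633), AT4G01870 (0.057) and AT3G10720 (0.092) on rescaled arrays without the block, AT5G47600 (0.0732), AT4G01870 (0.0816) and AT3G10720 (0.0553) with no filter. Further losses were AT5G47600 (0.0537) with the lower pseudocount, AT5G47600 (0.0747) on the 12 arrays of wild type and ckh1. With 1 array left out, calls were lost for AT1G72900 (0.211), GRX480 (0.103), AT4G01870 (0.0692), AT2G34930 (0.0592) and AT3G10720 (0.0513) without wild type replicate 1. Without wild type replicate 2 they were lost for AT4G26460 (0.101), AT5G47600 (0.327), AT4G01870 (0.254) and AT3G10720 (0.193). Without ckh1 replicate 1 they were lost for AT4G26460 (0.0929), AT5G47600 (0.131), AT1G72900 (0.132), AT5G06190 (0.116), GRX480 (0.15), AT4G01870 (0.274), AT2G23910 (0.0564), AT2G34930 (0.0746) and AT3G10720 (0.122). Without ckh1 replicate 2 they were lost for AT4G26460 (0.0516), AT5G47600 (0.178), AT1G72900 (0.0861), AT4G01870 (0.103) and AT3G10720 (0.137).

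In the list of lateral root and callus factors, LBD29 stood far lower in ckh1, while the other 4 members tested were not called. LBD29, a transcription factor that acts downstream of the auxin response factors ARF7 and ARF19 and that can drive callus formation when overexpressed, gave 818 and 757 in wild type and 111 and 119.7 in ckh1. The replicates were nearly equal within each genotype, the groups did not overlap, and the difference was -2.51 ± 0.37 (adjusted p = 0.000397), called under all 11 alternatives. LBD16, its relative in the same route, read 832 and 683 in wild type and 1001 and 707 in ckh1, overlapping groups with a difference of 0.15 ± 0.20 (adjusted p = 0.709). PUCHI, an AP2 factor of the lateral root primordium, had 545 and 504 against 371 and 361. Its mutant signals were under both wild-type signals, but the difference of -0.49 ± 0.17 (adjusted p = 0.0979) missed the threshold. The embryonic and root factor BBM (0.12 ± 0.28 (adjusted p = 0.849)) and the receptor kinase CR4, which restricts formative divisions (0.02 ± 0.34 (adjusted p = 0.98)), were not called. In all, 1 of the 5 tested genes of this list was called lower and none higher, with a median of 0.02 against 0.05 over all tested probe sets, 6.87% of which were called lower. The list had 20 entries, of which 5 could be named on the array.

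Early auxin response genes gave a mixed picture. IAA30, one of the Aux/IAA repressors, gave 598 and 189.5 in wild type against 929 and 685 in ckh1, and rose by 1.16 ± 0.32 (adjusted p = 0.0338). Its replicate 2 array in wild type was far below the other 3 arrays. The call was lost for IAA30 without wild type replicate 2 (0.36), ckh1 replicate 1 (0.161) or ckh1 replicate 2 (0.136), without the block, and for IAA30 (0.0636) with no filter. The other 3 tested members had -0.39 (IAA18), -0.11 (IAA29) and 0.59 (IAA20), none called, and the median of the 4 was 0.24 against 0.05 over all tested probe sets, of which 2.22% were called higher. The GH3 enzymes, which join auxin to amino acids, were bright and not called: GH3.3 gave 5868 and 2359 in wild type against 4553 and 3649 in ckh1, and the 4 differences ran from 0.02 (GH3.17) to 0.24 (WES1). Their median was 0.13, and it was -0.12 within replicate 1 and 0.38 within replicate 2. The type-A response regulator ARR15, a primary target of cytokinin signalling, was dim without kinetin, at 24.9 and 24.7 in wild type and 47.3 and 5.8 in ckh1, with a difference of -0.07 ± 0.31 (adjusted p = 0.927). UGT76C1 (0.03) and UGT76C2 (-0.11), which glucosylate cytokinins, were not called. Nor were the other listed genes whose lists had 1 or 2 tested members, the embryo factor EEL (-0.10), the ethylene pathway genes EIN3 (-0.12) and RTE1 (0.21), the cold-induced COR47 (0.51), the anthocyanin enzyme gene DFR (-0.04) and the heat shock gene ATHSP22.0 (0.99). The 4 tested genes of cell division, AUR1, AUR2, AUR3 and the replication licensing factor PRL, had a positive difference in both replicate numbers, between 0.17 and 0.45, and none was called. Over all, 5644 of 15469 tested probe sets were positive in both, and the cell division list had 38 entries.

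Several families of sugar transport and of vacuolar proteolysis had members called lower in ckh1 and none called higher. Over all tested probe sets 2.22% were called higher, so a lack of higher calls in lists of this size says little. These family lists were drawn up after values of these data had been seen, so their counts describe the families and support nothing on their own. Of the 7 SWEET transporters bright enough to test, of 16 named on the array, 4 were called lower, with a median of -1.14 against 0.05 over all tested probe sets, 6.87% of which were called lower. Besides SAG29 and SWEET2 these were SWEET13, with 129 and 158 in wild type and 46.9 and 29.5 in ckh1 (-1.39 ± 0.24 (adjusted p = 0.00132)), and the vacuolar fructose transporter SWEET17, with 409 and 425 against 208 and 147 (-1.14 ± 0.19 (adjusted p = 0.0012)). For both, the mutant signals were under the wild-type signals, whereas SWEET1 (0.49), SWEET11 (0.30) and SWEET16 (-0.21) were not called. Of 14 tested serine carboxypeptidase-like genes, of 29 named on the array, 6 were called lower, with a median of -0.42. The brightest called member, scpl20, gave 3366 and 3086 in wild type and 529 and 517 in ckh1, a difference of -2.56 ± 0.25 (adjusted p = 1.24e-05), and scpl48 gave 1916 and 1107 against 619 and 343 (-1.60 ± 0.16 (adjusted p = 1.11e-05)). Neither gene's groups overlapped, and both stayed called under all 11 alternatives. The other called members were scpl28 (-1.53), scpl46 (-1.23), scpl35 (-0.64) and scpl26 (-0.64).

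All 3 tested vacuolar processing enzymes, of 4 named on the array, were called lower in ckh1, with a median of -1.20, where 6.87% of all tested probe sets were called lower and the median was 0.05. These are proteases that mature vacuolar proteins and act in some forms of plant cell death. GAMMA-VPE gave 1308 and 853 in wild type and 507 and 392 in ckh1, without overlap, and a difference of -1.20 ± 0.12 (adjusted p = 1.74e-05). ALPHA-VPE read 124 and 119.6 against 38.4 and 3.32, where the second mutant array was near 0 signal. Its difference of -1.73 ± 0.39 (adjusted p = 0.0108) became -2.98 with the lower pseudocount, and BETA-VPE had -0.75 ± 0.21 (adjusted p = 0.0386). Of 9 ATG8 genes, whose proteins coat the membranes of autophagosomes, 2 were called lower: ATG8E (456 and 301 in wild type, 169 and 171 in ckh1, -1.01 ± 0.21 (adjusted p = 0.00602)) and APG8A (-0.93 ± 0.20 (adjusted p = 0.00907)), beside the same 6.87% over all. The median of the 9 was -0.35, and 8 of the 9 differences were negative, beside 42.9% of all tested probe sets. The ATG8 list was also drawn up after values were seen. Calls were lost with 1 array left out for scpl35 (0.105), scpl26 (0.0989), BETA-VPE (0.061), APG8A (0.0926) and ATG8E (0.0696) without wild type replicate 1. Leaving out wild type replicate 2 ended the call of scpl35 (0.109), scpl26 (0.0823), scpl28 (0.0957), BETA-VPE (0.246) and ALPHA-VPE (0.101). Leaving out ckh1 replicate 1 ended the call of scpl35 (0.135), scpl46 (0.0684), scpl26 (0.258), BETA-VPE (0.172), APG8A (0.163) and ATG8E (0.107). Leaving out ckh1 replicate 2 ended the call of scpl35 (0.108), scpl28 (0.0882), BETA-VPE (0.141) and ALPHA-VPE (0.117). Without the replicate block, SWEET17, scpl46, scpl35, scpl26, GAMMA-VPE, BETA-VPE, APG8A and ATG8E were no longer called, and the call of BETA-VPE was also lost with no filter (0.0684).

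In the lists of detoxification and of defence metabolites the calls were in the lower direction, which was also the commoner one over all probe sets. Of all those tested, 6.87% were called lower and 2.22% higher, with a median of 0.05. Of 6 tested tau class glutathione transferases, enzymes that attach glutathione to reactive compounds, of 11 named on the array, 4 were called lower, with a median of -1.13 and all 6 differences negative in both replicate numbers. Over all, 4191 of 15469 tested probe sets were negative in both. GSTU25 gave 397 and 161 in wild type and 73.2 and 80.9 in ckh1 (-1.44 ± 0.25 (adjusted p = 0.00187)), and GSTU27 gave 765 and 723 against 347 and 307 (-1.12 ± 0.16 (adjusted p = 0.000277)). The mutant arrays were lower without overlap in both. GSTU20 (-1.53 ± 0.37) and GSTU26 (-1.14 ± 0.21) were the other called members, and all 4 calls held without the block, while that of GSTU20 was lost on rescaled arrays without it (adjusted p = 0.0644). Of 24 tested UDP-glycosyltransferases, of 51 named on the array, 5 were called lower and none higher, and their median was -0.12, with 0.03 within replicate 1 and -0.36 within replicate 2. The lowest were UGT71C1 (103 and 78.3 in wild type, 21.3 and 4.1 in ckh1, -1.58 ± 0.21 (adjusted p = 0.000174), or -2.85 with the lower pseudocount) and GT72B1, which conjugates chlorinated phenols and anilines (471 and 381 against 163 and 110.2, -1.48 ± 0.27 (adjusted p = 0.00238)). UGT74D1, which glucosylates auxins, had -1.17 ± 0.24, UGT88A1 -1.07 ± 0.17 and UGT71C3 -0.83 ± 0.19. Of 13 tested beta-glucosidases 2 were called lower, BGLU16 (-0.95 ± 0.16) and BGLU19 (-1.67 ± 0.35, or -3.39 with the lower pseudocount), and the median was -0.11.

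In the route to aliphatic glucosinolates, a list also drawn up after values were seen, 3 of 5 tested genes were called lower, against 6.87% of all tested probe sets, and the median was -1.16, against 0.05 over all. BCAT4, the aminotransferase of the first step, gave 444 and 615 in wild type and 179 and 196 in ckh1, with a difference of -1.36 ± 0.37 (adjusted p = 0.0322). The transporter GTR2 gave 349 and 413 against 176 and 125 (-1.21 ± 0.25 (adjusted p = 0.00543)), and AOP3, which modifies the side chain, had -1.16 ± 0.28 (adjusted p = 0.015). None of the 3 had overlapping groups. The jacalin-related lectins JAL33 (2252 and 1772 in wild type, 1143 and 697 in ckh1, -1.14 ± 0.17 (adjusted p = 0.000449)) and JAL34 (-0.68 ± 0.13 (adjusted p = 0.00322)) were lower, and JAL22 (0.06) was not called, which makes 2 of 3 beside the same 6.87%. The lectin list, too, was drawn up after values were seen, so its count supports nothing on its own. With 1 array left out, calls among these genes of detoxification and defence metabolites were lost for UGT71C3 (0.0541), BCAT4 (0.061) and JAL34 (0.051) without wild type replicate 1. Without wild type replicate 2 they were lost for GSTU20 (0.115), BGLU19 (0.0503), UGT71C3 (0.0827), UGT74D1 (0.0792), GTR2 (0.0822), AOP3 (0.145) and BCAT4 (0.201). Without ckh1 replicate 1 they were lost for GSTU20 (0.176), BGLU19 (0.104), AOP3 (0.142) and BCAT4 (0.192). Without ckh1 replicate 2 they were lost for UGT71C3 (0.15), UGT74D1 (0.0768), GTR2 (0.056), AOP3 (0.0557) and BCAT4 (0.108). Under the other settings, the call was lost for BCAT4 (0.0678) on rescaled arrays without the block, BCAT4 (0.0633) with no filter. Without the block, UGT88A1, UGT74D1, UGT71C3, BGLU16, BCAT4, JAL33 and JAL34 were not called.

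In the wall lists most calls were lower, and the higher ones were EXPA8 and XTH19, of which EXPA8 stayed called under 3 of the 11 alternatives. Over all tested probe sets 6.87% were called lower and 2.22% higher with a median of 0.05, and the counts below stand beside these shares. The lists of trichome birefringence-like genes, tubulins, tetraspanins and RALF-like peptides were drawn up after values had been seen. Their counts therefore support nothing on their own. Of 22 genes in the secondary wall list, 3 could be named on the array. In the secondary wall list, 2 of 3 tested genes were called lower, IRX15-L (72.6 and 89.9 in wild type, 31.9 and 28.2 in ckh1, -0.92 ± 0.17 (adjusted p = 0.00261)) and IRX15 (-0.88 ± 0.23, or -2.15 with the lower pseudocount), both needed for normal xylan, the main hemicellulose of wood. Their signals did not overlap between genotypes, while GUT2, a xylan synthesis gene, was not called (-0.11). Of 11 tested expansins, which loosen walls, EXLB1 (-1.20 ± 0.28 (adjusted p = 0.0121)) and EXPB3 (-0.81 ± 0.19 (adjusted p = 0.0113)) were lower and EXPA8 (0.82 ± 0.25 (adjusted p = 0.0497)) was higher, with a median of -0.13. Of 7 tested xyloglucan endotransglucosylases, which cut and rejoin xyloglucan, XTH33 was lower (217 and 195 in wild type, 114 and 61.0 in ckh1, -1.06 ± 0.19 (adjusted p = 0.00224)) and XTH19 higher (660.3 and 454 against 1179 and 685, 0.69 ± 0.16 (adjusted p = 0.0134)). The genotypes were apart in opposite directions for these XTH genes, and the median of the list was -0.30. Of 18 tested probe sets for trichome birefringence-like genes, a family of wall polysaccharide acetyltransferases, 4 were called lower, 1 of the 2 for AT2G31110 (-0.77 ± 0.13 (adjusted p = 0.0016), beside -0.46 with adjusted p = 0.257 for the other), TBL25 (-0.71), TBL28 (-0.66) and TBL36 (-0.61), with a median of -0.42. TUB5 was lower among 7 tubulins (-0.86 ± 0.19 (adjusted p = 0.00835)), and TET3 (-0.85) and TET6 (-0.85) among 8 tetraspanins, with list medians of -0.12 and -0.12. RALFL32 was the single call among 5 tested RALF-like peptides, whose median was 0.23, and none of 5 class III peroxidases listed by family symbol (median 0.04) or 6 WRKY factors (median 0.11) was called.

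Calls of the wall genes were lost with 1 array left out for IRX15 (0.134), EXLB1 (0.145), EXPA8 (0.0661), XTH19 (0.0671), TBL36 (0.177), TBL25 (0.0581), TBL28 (0.0829) and TET6 (0.0917) without wild type replicate 1. Leaving out wild type replicate 2 ended the call of IRX15-L (0.0537), IRX15 (0.0792), EXPB3 (0.158), EXPA8 (0.29), XTH19 (0.0763), TBL25 (0.304), TBL28 (0.118) and TUB5 (0.0593). Leaving out ckh1 replicate 1 ended the call of IRX15 (0.241), EXLB1 (0.0772), EXPB3 (0.144), XTH19 (0.186), TBL36 (0.276), TBL25 (0.284), TBL28 (0.0858), TUB5 (0.167) and TET3 (0.0976). Leaving out ckh1 replicate 2 ended the call of EXLB1 (0.0766), EXPA8 (0.327), TBL25 (0.105), TBL28 (0.124) and TET6 (0.1). Without the block, IRX15, EXPB3, EXPA8, XTH33, XTH19, TBL36, TBL25, TBL28, AT2G31110, TUB5, TET3 and TET6 were not called. Under the other settings, calls were lost for EXPA8 (0.0566) and TBL25 (0.0593) on rescaled arrays without the block, EXPA8 (0.09) and TBL25 (0.0864) with no filter. Further losses were TBL25 (0.0533) with the lower pseudocount, IRX15 (0.0532), EXPA8 (0.0682) and TBL25 (0.0955) on the 12 arrays of wild type and ckh1, EXPA8 (0.0511) and TBL25 (0.0613) after quantile normalization.

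Most genes encoded in the plastid genome had slightly negative differences, with few calls. Of 68 tested plastid-encoded genes, 61 had a negative difference and 51 were negative in both replicate numbers, with a median of -0.39 against 0.05 over all tested probe sets. Over all, 42.9% of the tested probe sets had a negative difference, and 4191 of 15469 were negative in both replicate numbers. For the plastid list, the medians by replicate number follow. The median was -0.31 within replicate 1 and -0.40 within replicate 2. The plastid genome encodes parts of the photosystems, of the NDH complex, and of the plastid's own ribosomes and RNA polymerase. Of the list, 7 were called lower and 1 higher, where 6.87% and 2.22% of all tested probe sets were. Of these, psbT, a small subunit of photosystem II, gave 222 and 226 in wild type and 97.9 and 103 in ckh1 (-0.98 ± 0.26 (adjusted p = 0.0273)), and psaI, of photosystem I, gave 686 and 650.0 against 346 and 330.5 (-0.93 ± 0.20 (adjusted p = 0.00665)). The groups did not overlap for either, with the replicates close together. The others were accD, a subunit of acetyl-CoA carboxylase (-0.77 ± 0.19), the photosystem I assembly factor ycf4 (-0.65 ± 0.17), the ribosomal protein genes rpl14 (-0.62 ± 0.16) and rps19 (-0.40 ± 0.12) and ndhA, of the NDH complex (-0.58 ± 0.16). petN, of the cytochrome b6f complex, was higher (16.8 and 14.9 in wild type, 55.0 and 55.4 in ckh1, 0.93 ± 0.20 (adjusted p = 0.0086)), from a dim wild-type level, and its difference became 1.64 with the lower pseudocount.

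The nuclear genes of photosynthesis that could be tested had differences near or above 0. Of 43 listed photosystem and antenna genes 7 could be named on the array, and of 22 listed for chlorophyll synthesis 5. Of 7 tested photosystem and antenna genes, PSAE-1 was called higher (69.1 and 49.0 in wild type, 147 and 97.4 in ckh1, 0.78 ± 0.23 (adjusted p = 0.0496)), just inside the threshold, and the other 6 were not called, with a median of 0.11. That median was -0.01 within replicate 1 and 0.44 within replicate 2, and none of 5 tested genes of chlorophyll synthesis was called (median 0.14). The difference between plastid and nuclear lists was not tested. With 1 array left out, calls of these plastid and nuclear genes were lost for PSAE-1 (0.187), ndhA (0.0609), psbT (0.137), rpl14 (0.0818), rps19 (0.184), accD (0.157), psaI (0.0601) and ycf4 (0.0594) without wild type replicate 1. Without wild type replicate 2 they were lost for PSAE-1 (0.139), ndhA (0.24), psbT (0.0872), rpl14 (0.129), rps19 (0.146), petN (0.0751) and ycf4 (0.176). Without ckh1 replicate 1 they were lost for PSAE-1 (0.246), ndhA (0.301), psbT (0.128), rpl14 (0.146), rps19 (0.158), petN (0.087), accD (0.0561) and ycf4 (0.144). Without ckh1 replicate 2 they were lost for PSAE-1 (0.135), ndhA (0.0599), psbT (0.128), rpl14 (0.0935), rps19 (0.187), accD (0.146), psaI (0.0599) and ycf4 (0.109). Under the other settings, calls were lost for PSAE-1 (0.0592), ndhA (0.277), psbT (0.154), rps19 (0.39), psaI (0.0925) and ycf4 (0.209) on rescaled arrays without the block, PSAE-1 (0.0874), ndhA (0.0546), psbT (0.0541) and rps19 (0.0551) with no filter, PSAE-1 (0.0977), psbT (0.0542) and rps19 (0.085) on the 12 arrays of wild type and ckh1. Without the block, none of the 7 plastid-encoded genes was called lower, while petN stayed called.

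**Figure D3:**
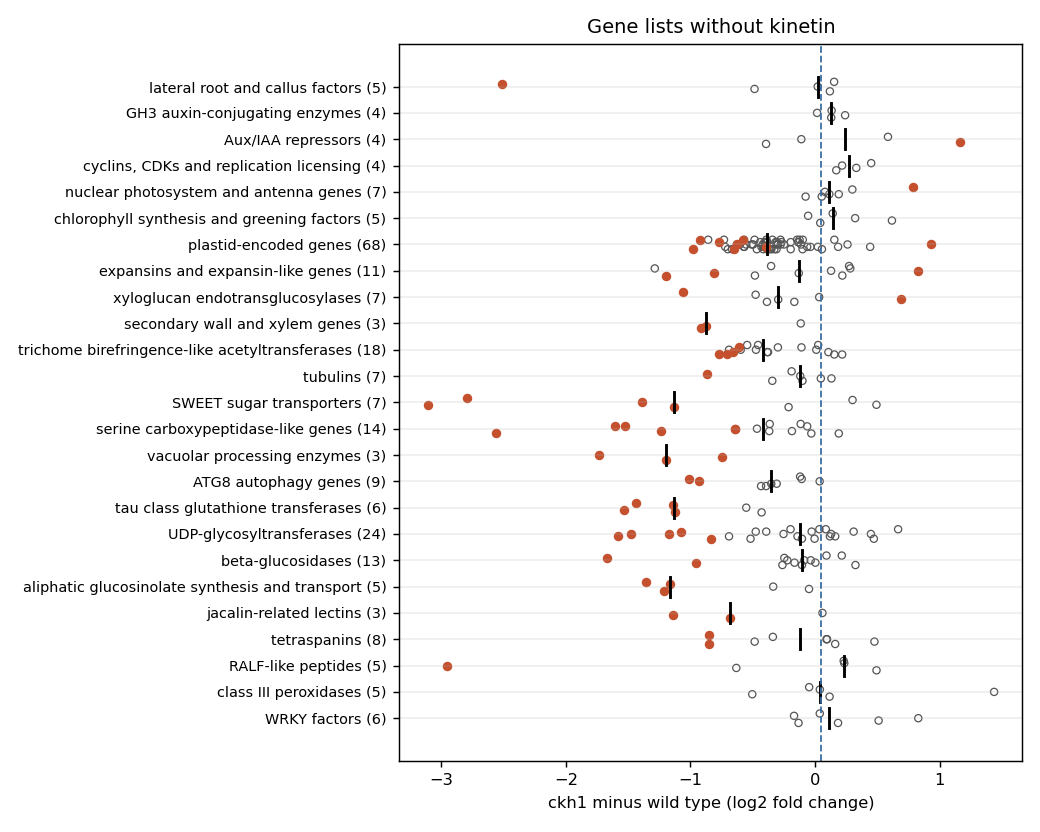
Difference between ckh1 and wild type without kinetin (x axis, log2 fold change) for each tested member of 25 gene lists (number tested in brackets); filled points were called, black bars are list medians and the dashed line is the median of all tested probe sets at 0.05. The SWEET, vacuolar processing enzyme, aliphatic glucosinolate and glutathione transferase medians lie at or under -1.13. The first 3 of these lists were drawn up after values had been seen. Most plastid-encoded genes lie to the left of the line, with 7 of 68 above 0, where 42.9% of all tested probe sets were below 0.

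Many of the differences seen without kinetin were also present with kinetin at 25 ng/ml, measured on other arrays of the same genotypes. At 25 ng/ml, 1509 probe sets (9.75%) were called between ckh1 and wild type, 628 (4.06%) higher and 881 (5.7%) lower. Of the 1407 called without kinetin, 581 were called in the same direction at 25 ng/ml (41.3% of the one list and 38.5% of the other), 463 lower and 118 higher, and 21 in the opposite direction. Probe sets called lower without kinetin had a median of -0.58 at 25 ng/ml and those called higher a median of 0.39, against 0.01 over all tested probe sets. Of the 15 lowest named genes 13 were lower again, and of the 15 highest 7 were higher again and 1 was lower. AT1G47400 gave 127 and 89.6 in wild type and 774 and 843 in ckh1 at 25 ng/ml, a difference of 2.63 ± 0.29 (adjusted p = 5.85e-05), with the groups as far apart as without kinetin. AT3G63360 gave 589 and 1218 against 29.5 and 4.44, a difference of -4.36 ± 0.49 (adjusted p = 6.57e-05). AT1G75880, higher in ckh1 without kinetin, was lower there at 25 ng/ml, with 232 and 131 in wild type and 74.7 and 41.1 in ckh1 (-1.28 ± 0.24 (adjusted p = 0.00332)). For this gene the change of the ckh1 difference from no kinetin to 25 ng/ml was itself called, at -2.72 ± 0.34 (adjusted p = 0.00258). Such a change was called for 158 probe sets (1.02%), 89 of them among the 1407, of which 67 were called lower without kinetin and had a less negative difference at 25 ng/ml. That direction is favoured by the choice of probe sets on the arrays without kinetin, which enter both values.

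At 200 ng/ml ckh1 and wild type differed at a larger number of probe sets, part of which were those called without kinetin. There 2265 probe sets (14.6%) were called, 918 (5.93%) higher and 1347 (8.71%) lower. The same direction as without kinetin was called for 515, which is 36.6% of the set without kinetin and 22.7% of the set at 200 ng/ml, and the opposite direction for 66. The medians at 200 ng/ml were -0.47 for the probe sets called lower without kinetin and 0.23 for those called higher, against -0.02 over all. A change of the ckh1 difference between no kinetin and 200 ng/ml was called for 820 probe sets (5.3%; 2.41% up, 2.89% down), 312 of them among the 1407, and again the choice of those probe sets favours differences closer to 0. RALFL32 read 34.0 and 31.7 in ckh1 without kinetin and 362 and 261 at 200 ng/ml, beside 728 and 323 in wild type. Its difference from wild type was -0.62 ± 0.28 (adjusted p = 0.164) at 200 ng/ml, and the change of 2.33 ± 0.40 (adjusted p = 0.00242) was called. AT1G62660, the vacuolar invertase, had 704 and 382 in wild type and 769 and 342 in ckh1 at 200 ng/ml, overlapping groups with a difference of -0.01 ± 0.43 (adjusted p = 0.989), a change of 2.63 ± 0.61 (adjusted p = 0.0197). LBD29 and SAG29 were also lower at 200 ng/ml, with differences of -1.30 ± 0.37 (adjusted p = 0.0261) and -1.71 ± 0.24 (adjusted p = 0.000196). AT4G38410, higher in ckh1 without kinetin, had -0.90 ± 0.36 (adjusted p = 0.11) at 200 ng/ml, and AT5G22580 had -0.53 ± 0.26 (adjusted p = 0.208). Neither was called there, while their changes of -2.82 ± 0.50 (adjusted p = 0.00348) and -2.02 ± 0.37 (adjusted p = 0.00443) were. The plastid-encoded list had medians of 0.01 at 25 ng/ml and 0.22 at 200 ng/ml.

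**Figure D4:**
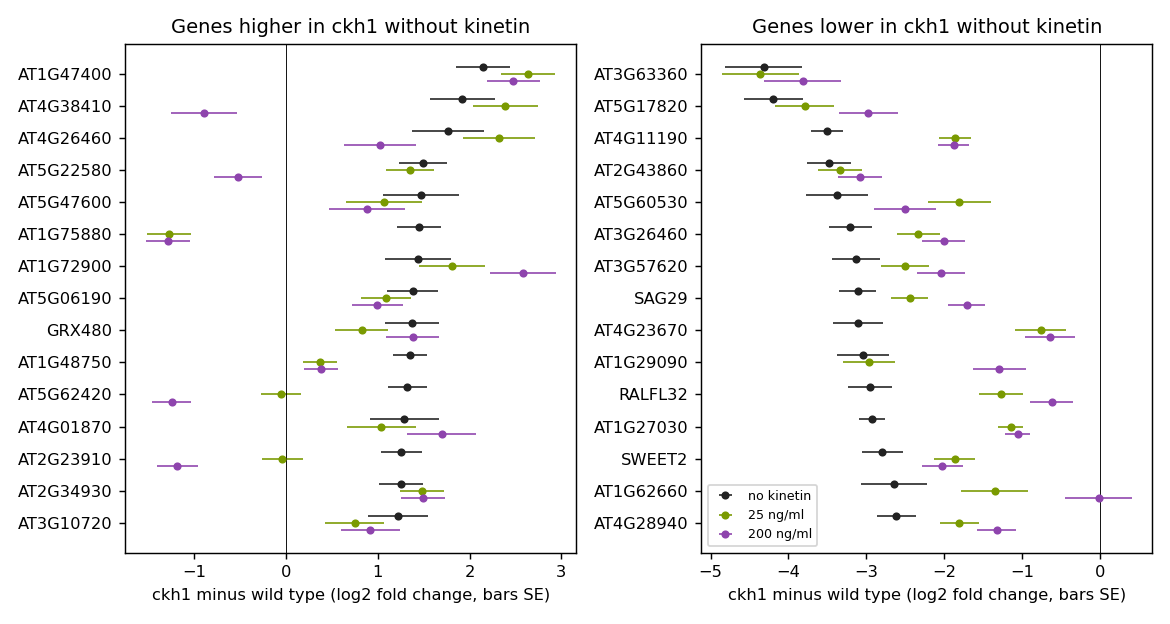
Difference between ckh1 and wild type (x axis, log2 fold change, bars SE from 2 arrays per group) without kinetin and at 25 and 200 ng/ml for the 15 highest and 15 lowest named genes without kinetin. On the right most differences move towards 0 at 200 ng/ml, a direction that the choice of genes favours. On the left AT1G75880, AT5G62420, AT2G23910, AT4G38410 and AT5G22580 are below 0 at 200 ng/ml, of which the first 3 were called lower there.

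The 5 named genes with the largest positive change to 200 ng/ml turned from lower to higher in ckh1. They were chosen on that change, which favours such a turn, so the turn is no separate support. Of the 1407 probe sets called without kinetin, 66 were called in the opposite direction at 200 ng/ml. AT2G23540, a GDSL lipase family gene, gave 637 and 401 in wild type and 154 and 140.0 in ckh1 without kinetin, and 56.3 and 35.3 against 372 and 231 at 200 ng/ml. The genotypes did not overlap at either level and changed order, and the change was 3.76 ± 0.22 (adjusted p = 4.61e-07). AT4G38080, a gene for a hydroxyproline-rich protein, gave 821 and 690.0 in wild type and 222 and 261 in ckh1 without kinetin, and 114 and 45.6 against 594 and 539.6 at 200 ng/ml. The order turned here as well, with a change of 4.09 ± 0.40 (adjusted p = 1.47e-05). AT1G74460, another GDSL lipase family gene (3.80 ± 0.34 (adjusted p = 6.41e-06)), AT3G22620, a lipid-transfer-like gene (3.2 ± 0.33 (adjusted p = 2.5e-05)), and AT2G22510 (2.79 ± 0.26 (adjusted p = 9.04e-06)) followed the same course, and they complete the 5 named genes with the largest positive change. Without kinetin their differences were -1.59, -1.19 and -1.56, all called, and at 200 ng/ml 2.21, 2.01 and 1.23, also called. Among the 5 with the largest negative change, none was called between the genotypes without kinetin, although OCT1 (-1.04 in that comparison, or -2.52 with the lower pseudocount) was called when wild type replicate 2 was left out (-1.86, adjusted p = 0.0121). AT4G29020, a glycine-rich protein gene, was bright in both without kinetin, at 6374 and 4755 in wild type against 5048 and 4295 in ckh1, and read 2535 and 2779 against 75.8 and 75.1 at 200 ng/ml. The change was -4.46 ± 0.29 (adjusted p = 6.22e-07), against -1.40 ± 0.29 (adjusted p = 0.0302) from no kinetin to 25 ng/ml. AT5G45670 (-4.36) and AT3G16370 (-3.64), both GDSL lipase family genes, the lipid transfer protein gene AT5G01870 (-3.76) and the organic cation transporter OCT1 (-3.72, dim without kinetin) were the others. The call without kinetin was lost for AT3G22620 (0.0562) without wild type replicate 1. Leaving out ckh1 replicate 1 ended the call of AT4G38080 (0.0534) and AT3G22620 (0.0728), and, without the block, for AT1G74460 and AT3G22620.

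A direct test against ckh2-1 without kinetin asked which of the ckh1 values differed from those of the other mutant. Between ckh1 and ckh2, 1040 probe sets (6.72%) were called, 313 (2.02%) higher and 727 (4.7%) lower in ckh1. Among the 1063 probe sets called lower in ckh1 than in wild type, 318 were also lower in ckh1 than in ckh2, and among the 344 called higher, 70 were also higher than in ckh2. The ckh1 arrays enter both of these comparisons, which favours such matches. AT1G29090, the cysteine protease, gave 1893 and 998 in ckh2, near the wild type and apart from 181 and 154 in ckh1, and its difference between the mutants was -2.85 ± 0.34 (adjusted p = 0.000149). AT5G14650, a polygalacturonase-like gene, read 227 and 210.2 in ckh1, under 1574 and 989 in wild type and 2889 and 1647 for ckh2. The ckh1 arrays were the low ones, with differences of -2.38 ± 0.26 (adjusted p = 2.47e-05) from wild type and -3.17 ± 0.26 (adjusted p = 1.1e-05) from ckh2. AT1G47400 (2.08 ± 0.29 (adjusted p = 0.000569)), AT4G38410 (1.78 ± 0.36 (adjusted p = 0.00699)) and AT1G75880 (2.45 ± 0.24 (adjusted p = 4.01e-05)) were higher in ckh1 than in ckh2. In ckh2 the iron-deficiency peptide gene AT1G47400 read 149 and 82.6, inside or close to the wild-type range of 133 and 82.6. SAG29 was lower in ckh1 than in ckh2 by -2.29 ± 0.24 (adjusted p = 6.18e-05), while LBD29 differed from ckh2 by -1.33 ± 0.37 (adjusted p = 0.0414). Leaving out replicate 1 of ckh1 reduced the 1040 calls to 325, replicate 1 of ckh2 to 348, replicate 2 of ckh2 to 498 and replicate 2 of ckh1 to 686.

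Other genes differed between the mutants through ckh2 values away from the wild type. TBL41, of the trichome birefringence-like family, was near 0 signal in ckh1 (2.80 and 4.47) and dim in wild type (31.9 and 14.9), but read 818 and 585 in ckh2, a difference of -4.54 ± 0.38 (adjusted p = 1.13e-05) between the mutants. AT1G58025 (96.3 and 42.3 in ckh1, 151 and 56.7 in wild type, 1094 and 1077 for ckh2) showed the same order, with -3.58 ± 0.35 (adjusted p = 4.01e-05). In both genes the ckh2 arrays were the high ones, and ckh1 was not called against wild type (-0.69 and -0.40), except that TBL41 was called with the lower pseudocount (-1.97, adjusted p = 0.0172). The class III peroxidase AT4G30170 moved from the wild type in both mutants, down to 10.2 and 5.87 in ckh1 and up to 637 and 355 in ckh2, from 44.8 and 75.4. It was lower in ckh1 than in wild type (-1.28 ± 0.35 (adjusted p = 0.0313), or -2.53 with the lower pseudocount) and lower than in ckh2 (-3.83 ± 0.35 (adjusted p = 2.1e-05)). The call against wild type was lost for AT4G30170 without wild type replicate 2 (0.317), ckh1 replicate 1 (0.234) or ckh1 replicate 2 (0.0774), without the block, and with no filter on dim probe sets. ZW9 and the class III peroxidase AT4G08780 were higher in ckh1 than in ckh2 (2.22 ± 0.45 (adjusted p = 0.00699) and 1.86 ± 0.16 (adjusted p = 1.14e-05)), and AT4G08780 gave 2408 and 1852 in ckh1 beside 2324 and 2116 in wild type, but 561 and 563 for ckh2, with the ckh2 arrays apart from the rest.

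The comparisons of ckh2, of kinetin and of TSA with the untreated wild type share the wild-type arrays with the ckh1 comparison, so their values are given side by side and no agreement is drawn from them. Against those arrays, 1215 probe sets (7.85%) were called in ckh2 (3.1% higher, 4.76% lower), 10 (0.0646%) in wild type at 25 ng/ml kinetin, 1764 (11.4%) at 200 ng/ml and 5487 (35.5%) with TSA (16% higher, 19.4% lower). AT3G63360 had -4.32 in ckh1, -3.94 in ckh2, -1.07 in wild type with 200 ng/ml kinetin and -1.95 with TSA. For LBD29 the values were -2.51, -1.18, -0.75 and -0.73 in the same order, and the ckh2 value was not called (adjusted p = 0.0634). The ckh2 signals of LBD29 were 342 and 321, between those of wild type and ckh1. SAG29 had -3.11, -0.82, 0.47 and -0.54, and RALFL32 had -2.95, -2.12, 0.14 and -0.25. AT1G47400 had levels near the wild type outside ckh1, with 0.07 in ckh2, -0.02 with 200 ng/ml kinetin and 0.04 with TSA, none called. Over all 6 ckh1 arrays its signals ran from 524.7 to 934, and over the other 14 arrays from 56.5 to 177. AT1G75880 moved the other way in the treated wild type, with -1.85 at 200 ng/ml and -3.13 with TSA against 1.45 in ckh1. Of the 15 lowest named genes in ckh1, 13 were called lower in ckh2 and 10 with TSA, and of the 15 highest, 5 were called higher in ckh2 and 7 with TSA, while 6 were called lower with TSA.

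**Figure D5:**
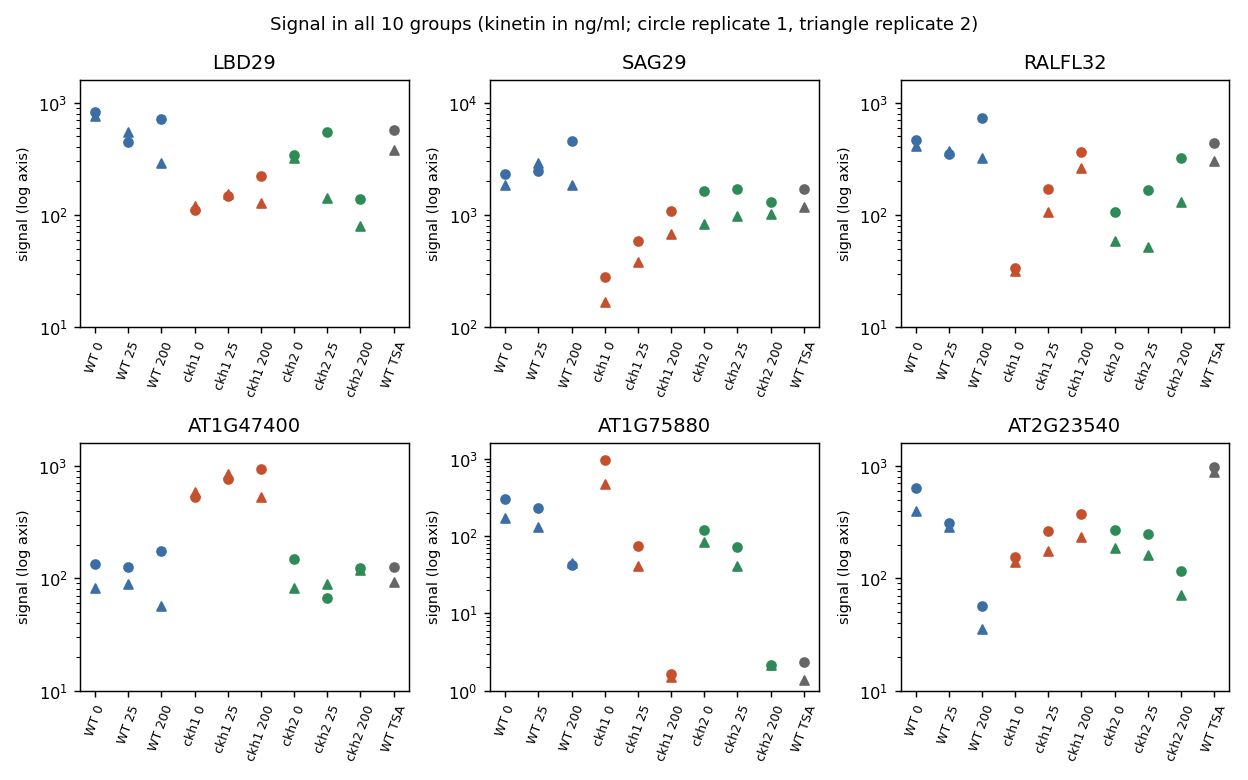
Deposited signal (y axis, log scale) in the 2 arrays of each of the 10 groups for 6 genes, with kinetin in ng/ml on the x axis and replicate 1 as circles, replicate 2 as triangles. AT1G47400 is at 524.7 or above in all 6 ckh1 arrays and at 177 or under in the other 14, and LBD29, SAG29 and RALFL32 have their lowest wild-type or ckh1 signals in ckh1 without kinetin.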

How the data were processed

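The 20 samples were each hybridised to 1 Affymetrix ATH1 array, 2 arrays per group in 10 groups, and groups were taken from the samples' titles. Per the labels, the authors made biotinylated cRNA from total RNA, and MAS5 is named in the submitters' processing notes, with no version or scaling target given in the sources used here. The deposited values are intensities, one MAS5 signal per probe set on a linear scale. The array values themselves showed a trimmed mean of 310.9 on all replicate 1 arrays and 236.9 on all replicate 2 arrays, a ratio of 1.31 (0.39 on the log2 scale), so differences were taken within replicate number. Values were taken as log2(signal + 27.4), where the pseudocount is 0.1 of the median trimmed mean, so differences of dim genes are understated. After 64 control probe sets were left out, 22746 remained, and 15469 were tested, those in which at least 1 group's mean exceeded the 40th percentile of the values (6.55 on the log2 scale). A model with 10 group means and the replicate number as a block was fitted in limma 3.58.1 in R 4.3.3 (functions lmFit and eBayes, the latter trended on intensity; 9 residual and 5.95 prior degrees of freedom), two-sided, with Benjamini-Hochberg adjustment over all tested probe sets and a threshold of 0.05. All 20 arrays entered the fit so that the groups share 1 estimate of the spread. Data were simulated for the comparison without kinetin, with 15469 probe sets of which 200 were changed. There the blocked model called 79 of 100 probe sets changed by 1 on the log2 scale and 96 of 100 changed by 2. It made 9 false calls. The model without the block called 19 and 91, with 0 false calls. Whether the block suits the deposited arrays was not tested by these counts. Probe sets were named through the platform annotation and the TAIR10.1 gene table of RefSeq: 13513 had 1 gene symbol, 503 several and 8730 none, and 13436 of the first matched the table. Only probe sets with 1 gene are named, and each gene is given by its symbol or locus tag. The named genes are the 15 highest and the 15 lowest differences among called probe sets with 1 gene, the same sign in both replicate numbers and a higher group above the median of all values, the 5 of each sign for ckh1 against ckh2 and for the change at 200 ng/ml, all called members of the gene lists, and all tested members of the response regulator, GH3, lateral root and TFIID lists. Of 47 lists, 32 had a tested member, and all 32 are described. The comparison, the lists and the tests were chosen with earlier results of these data known, and 10 of the family lists were added after values had been seen. Alternatives were no replicate block, rescaling, quantile normalization, no filter, a pseudocount of 2.74, the 12 arrays of wild type and ckh1 alone, and leaving out each array in turn, with the fit on rescaled arrays without the block added after the data were seen. The labels do not say that a replicate number marks a shared batch, and deviations of same-numbered arrays from their group means had correlations between -0.13 and 0.64 over 45 pairs of groups, 27 of them above 0.1, with 0.28 for ckh1 and wild type without kinetin. The block therefore stands for any shift between the replicate numbers and not for a known pairing. That shift is not limited to the scale, since on rescaled arrays 1427 probe sets were called with the block and 1120 without it. No gene sequences or coordinates were used here.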

Additional observations from a re-analysis of the deposited data

Results flagged for a closer look

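Several tests of a difference between differences passed the threshold, each by limma with Benjamini-Hochberg adjustment. The difference between ckh1 and wild type changed from no kinetin to 25 ng/ml for 158 probe sets and from no kinetin to 200 ng/ml for 820 probe sets, and ckh1 differed directly from ckh2 without kinetin for 1040 probe sets. At an unadjusted p below 0.05 these tests pass 1892, 3173 and 3298 probe sets. Against ckh2, the named genes highest in ckh1 were AT1G75880 (log2 difference 2.45), ZW9 (2.22), AT1G47400 (2.08), AT4G08780 (1.86) and AT4G38410 (1.78), and the lowest were TBL41 (-4.54), AT4G30170 (-3.83), AT1G58025 (-3.58), AT5G14650 (-3.17) and AT1G29090 (-2.85). Among these 10 genes, AT1G75880 was on opposite sides of the wild type in the mutants, called higher in ckh1 (1.45) and lower in ckh2 (-1.0), and AT4G30170 the reverse (-1.28 and 2.55). The largest positive changes of the ckh1 difference between no kinetin and 200 ng/ml among named genes were those of AT4G38080 (4.09), AT1G74460 (3.80), AT2G23540 (3.76), AT3G22620 (3.2) and AT2G22510 (2.79). The largest negative ones were those of AT4G29020 (-4.46), AT5G45670 (-4.36), AT5G01870 (-3.76), OCT1 (-3.72) and AT3G16370 (-3.64). OCT1 was dim in the 4 arrays without kinetin, at 86.7 and 3.56 in wild type and 1.67 and 1.16 in ckh1, and read 1307 and 423 in wild type and 1.04 and 1.18 in ckh1 at 200 ng/ml.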

How the results depend on the processing

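The choice of the replicate block and of single arrays moved the counts most. Without the replicate block the calls between ckh1 and wild type without kinetin fell from 1407 to 420 (344 to 37 higher, 1063 to 383 lower), all 420 of them among the 1407 with the same sign, and the median SE rose from 0.17 to 0.29. The same change gave 361 in place of 1509 calls at 25 ng/ml, 664 in place of 2265 at 200 ng/ml, 1 in place of 158 and 189 in place of 820 for the changes between kinetin levels, and 163 in place of 1040 between the mutants. On rescaled arrays without the block, an alternative added after the data were seen, the counts without kinetin were 1120 in all and 221 higher, and the change at 25 ng/ml had 90. With no filter on dim probe sets the change at 25 ng/ml had 94. With 1 array left out, the counts without kinetin ran from 618 to 943 in all, from 72 to 210 higher and from 546 to 733 lower. They ran from 602 to 1345 at 25 ng/ml, from 1048 to 1503 at 200 ng/ml, from 33 to 329 for the change at 25 ng/ml, from 386 to 724 for the change at 200 ng/ml and from 325 to 686 between the mutants. Where an array is left out, the remaining array of its group is assumed to vary like the other groups. Rescaling with the block, quantile normalization, the lower pseudocount and the 12 arrays of wild type and ckh1 each kept these counts within 1.5 times. Of 108 genes named in the text and called without kinetin, 36 stayed called under all 11 alternatives, and 56 of the other 72 lost the call only where the block or an array was left out. No named gene changed sign between the original value and an alternative while called. The plastid-encoded list kept a negative median under each scaling. The number of arrays limits what can be told: 2 per group allow no check of an outlying array, and signals near 0 carry no size of difference.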

Other observations

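Further called genes outside the lists, chosen after their values were seen, include regulators of growth and development. SIM, an inhibitor of cyclin-dependent kinases that promotes endoreduplication, gave 436 and 301 in wild type and 99.0 and 53.2 in ckh1 (replicates 1 and 2), and was lower by limma at -1.95 ± 0.19 (adjusted p = 1.21e-05), under all 11 alternatives. PTL, a trihelix factor of the flower, had 60.4 and 51.5 against 5.65 and 3.32, a difference of -1.39 ± 0.16 (adjusted p = 5.71e-05) that became -3.04 with the lower pseudocount, also under all 11. For both genes the mutant arrays were below the wild-type arrays without overlap. CLE41, a peptide that keeps vascular stem cells dividing (-0.92 ± 0.17 (adjusted p = 0.0021)), and ULT1, a developmental regulator that counteracts Polycomb repression (-0.92 ± 0.16 (adjusted p = 0.00156)), were lower under 10 of the 11, lost without the block. GSO1, a receptor kinase of the endodermal barrier, was lower at -0.75 ± 0.17 (adjusted p = 0.00991) under 8 of them. PHV, a homeodomain factor of leaf polarity, read 381 and 301 in wild type and 605 and 468 in ckh1 and was higher at 0.61 ± 0.14 (adjusted p = 0.0112) under 6 of the 11, and ATC, a relative of TERMINAL FLOWER, was higher at 1.16 ± 0.32 (adjusted p = 0.0341) under 4. With 1 array left out these calls were lost for GSO1 without wild type replicate 1 (0.0956) or ckh1 replicate 2 (0.0995), PHV without wild type replicate 1 (0.059), wild type replicate 2 (0.0698), ckh1 replicate 1 (0.104) or ckh1 replicate 2 (0.0514), ATC without wild type replicate 1 (0.232), ckh1 replicate 1 (0.193) or ckh1 replicate 2 (0.117), and all 3 were lost without the block. The other settings ended the call of ATC (0.0679) with no filter, ATC (0.0687) with the lower pseudocount, ATC (0.0528) on the 12 arrays of wild type and ckh1.

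Genes of plastid biogenesis, metabolism and metal supply were also among the calls. The plastid division gene FTSZ2-2 (127 and 89.3 in wild type, 229 and 157 in ckh1, 0.70 ± 0.15 (adjusted p = 0.00665)), the photosystem II assembly factor PAM68 (0.70 ± 0.20 (adjusted p = 0.0381)) and the plastid chaperonin subunit Cpn60beta2 (0.63 ± 0.15 (adjusted p = 0.0118)) were higher. The ATP sulfurylases, which start sulfate assimilation, moved apart, with APS3 higher (410.5 and 311 against 792 and 549, 0.84 ± 0.17 (adjusted p = 0.00534)) and APS4 lower (1523 and 1209 against 981 and 841, -0.57 ± 0.13 (adjusted p = 0.011)). While the iron-deficiency peptide gene AT1G47400 was higher, the iron regulator bHLH115 was lower (-0.76 ± 0.18 (adjusted p = 0.0166)), as was the zinc transporter family gene ZIP9 (-0.77 ± 0.17 (adjusted p = 0.011)). PPDK, pyruvate orthophosphate dikinase, was higher (49.4 and 60.3 in wild type, 182 and 111 in ckh1, 1.05 ± 0.24 (adjusted p = 0.0109)). The sugar porter SFP1 (1376 and 1061 against 262 and 274, -2.07 ± 0.29 (adjusted p = 0.00028)) and BAT1, an acyltransferase acting on brassinosteroids (808 and 748 against 280.4 and 225, -1.53 ± 0.25 (adjusted p = 0.00109)), were lower under all 11 alternatives. With 1 array left out, calls were lost for PPDK (0.145), APS4 (0.0666), FTSZ2-2 (0.0795), ZIP9 (0.108) and PAM68 (0.174) without wild type replicate 1. Without wild type replicate 2 they were lost for bHLH115 (0.179), APS4 (0.0625), PAM68 (0.105) and Cpn60beta2 (0.13). Without ckh1 replicate 1 they were lost for APS3 (0.0799), PPDK (0.126), APS4 (0.121), ZIP9 (0.162), PAM68 (0.317) and Cpn60beta2 (0.137). Without ckh1 replicate 2 they were lost for bHLH115 (0.174), FTSZ2-2 (0.0642) and PAM68 (0.0558), and all 8 were lost without the block. Under the other settings, calls were lost for FTSZ2-2 (0.0716) on rescaled arrays without the block, PAM68 (0.0631) with no filter, PAM68 (0.0514) on the 12 arrays of wild type and ckh1.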
